A study of Mus musculus with 6 samples.

Results

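Chemokines and chemokine receptors were followed across p65 binding sites in mouse epidermis. The group holds every protein-coding mouse gene in the RefSeq annotation of mm10 (GRCm38) with a symbol of Ccl, Cxcl, Ccr or Cxcr and a digit, together with Xcl1, Xcr1, Cx3cl1, Cx3cr1 and Ackr1 to Ackr4. This gave 61 of 20923 protein-coding genes, of which 38 encode ligands and 23 encode receptors. A peak was assigned to the gene whose transcription start site was nearest to the middle of the peak, and a gene with at least 1 assigned peak in a list is called bound in that list. By this rule 16 of the 61 genes were bound in at least 1 condition, beside 25.2% of all protein-coding genes, and 45 in none.

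ChIP–seq for p65, the NF-κB subunit encoded by Rela, was done on epidermal cells of C57bl/6J mice that were separated from the dermis with trypsin and not sorted. The 3 conditions were adult mice without treatment, aged mice given intraperitoneal control IgG for 12 weeks (aged/IgG control) and aged mice given intraperitoneal antibodies that block IL-17A and IL-17F for the same 12 weeks (aged/anti-IL-17A/F), with treatment starting at 73 weeks of age. Reads of 4 mice were merged into 1 peak list per condition, so there is no spread between mice and no test between conditions, and the 3 input samples were not analysed here. The lists hold 8525 peaks for adult, 4169 for aged/IgG control and 6014 for aged/anti-IL-17A/F.

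One point bears on the labels. All 8525 adult peaks and all 6014 aged/anti-IL-17A/F peaks carry names beginning with "Treated", whereas the labels give the first list as adult. The conditions are used here as labelled. If these lists were exchanged, each would still have 14 bound members and the 2 genes bound in 1 of them and not the other would trade places. Every other value given for 1 of these lists would pass to the other, such as the 23.1% and 17.4% of all genes bound. Comparisons between the 2 would turn round, and those of either with the aged/IgG control pool would trade values. Of 10 keratinocyte marker genes, 10 had a peak in adult mice, 5 in the aged/IgG control pool and 8 in the aged/anti-IL-17A/F pool, where 23.1%, 12.9% and 17.4% of all genes did. Of the markers of other cells, 3, 2 and 3 of 8 Langerhans or myeloid genes had one in the same order, as did 0, 0 and 1 of 6 T cell genes, 1, 0 and 1 of 5 fibroblast genes, 1 in each list of 4 endothelial genes and 0 in each of 4 melanocyte genes. A peak does not measure expression, so the makeup of the cells was not tested, and a site occupied in fewer cells cannot be told apart from one occupied less often in each cell.

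Chemokines are small secreted proteins that guide leukocytes along concentration gradients, and they are classed as CC, CXC, CX3C or XC by the spacing of their first cysteines. They act through receptors coupled to G proteins, whereas the atypical receptors of the Ackr family bind chemokines and take them up without G protein signalling. Keratinocytes make several chemokines when stimulated with cytokines such as IL-17 or TNF, and NF-κB is a known regulator of many chemokine genes.

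The sequences under the strongest peaks are given first, with the letters that match the motif NF-κB proteins are known to recognise. The NF-κB consensus motif, GGGRNWYYCC, was searched on both strands. In it R is A or G, N is any base, W is A or T and Y is C or T. Shown here are 101 bases of mm10, plus strand, centred on the summit of the strongest peak at the 3 members with the highest adult fold enrichment, with matches to the motif in capitals. The Cxcl16 window is chr11:70467932-70468032, the Cxcl10 window chr5:92348966-92349066 and the Ackr4 window chr9:104146854-104146954.
Cxcl16: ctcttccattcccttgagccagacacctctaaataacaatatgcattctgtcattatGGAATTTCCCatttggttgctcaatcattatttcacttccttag
Cxcl10: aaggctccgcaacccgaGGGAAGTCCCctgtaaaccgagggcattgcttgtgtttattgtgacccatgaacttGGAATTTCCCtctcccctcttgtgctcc
Ackr4: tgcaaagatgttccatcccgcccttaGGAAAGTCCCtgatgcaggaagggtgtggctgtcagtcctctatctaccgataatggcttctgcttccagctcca

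The Cxcl16 and Ackr4 windows each held 1 match and the Cxcl10 window held 2. The Cxcl16 match, GGGAAATTCC on the minus strand, lay 11.5 bp from the adult summit, 8.5 bp from the aged/anti-IL-17A/F summit and 2.5 bp from the aged/IgG control summit. The Cxcl10 matches, GGGACTTCCC and GGGAAATTCC in the direction of the gene, were centred 98.5 bp and 154.5 bp upstream of the start site. The Ackr4 match was GGGACTTTCC on the minus strand.

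The Cxcl1 promoter is shown because its peak differed most between conditions among the members bound in all 3 lists. These are 300 bases of the RefSeq promoter table (GRCm38.p6), chr5:90890995-90891294, plus strand, from 250 bases before the start site to 50 bases after it.
Cxcl1: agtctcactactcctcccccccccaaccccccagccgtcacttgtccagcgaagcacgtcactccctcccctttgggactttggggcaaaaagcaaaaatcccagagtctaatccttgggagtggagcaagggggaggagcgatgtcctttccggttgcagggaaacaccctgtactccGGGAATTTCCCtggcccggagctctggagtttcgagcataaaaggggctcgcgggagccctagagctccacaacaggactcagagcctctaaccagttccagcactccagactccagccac

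The capitals cover 2 overlapping matches, 1 on each strand, centred 66.5 bp and 65.5 bp upstream of the start site. The adult summit lay 4.5 bp from the closer of them, the aged/IgG control summit 5.5 bp and the aged/anti-IL-17A/F summit 18.5 bp.

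A set of 6 members was bound after aged/anti-IL-17A/F treatment but without a peak in the aged/IgG control pool, beside 5.80% of all genes. Their windows, 101 bases of the plus strand around the aged/anti-IL-17A/F summit, are shown to compare them with the sites above. They are chr9:121904158-121904258 for Ackr2, chr1:90205485-90205585 for Ackr3, chr4:42780415-42780515 for Ccl21a, chr13:119631901-119632001 for Ccl28, chr9:114502778-114502878 for Ccr4 and chr13:56324185-56324285 for Cxcl14.
Ackr2: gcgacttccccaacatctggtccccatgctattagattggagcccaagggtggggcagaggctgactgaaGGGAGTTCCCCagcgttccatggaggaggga
Ackr3: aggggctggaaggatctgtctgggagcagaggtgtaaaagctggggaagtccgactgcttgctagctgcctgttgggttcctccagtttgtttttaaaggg
Ccl21a: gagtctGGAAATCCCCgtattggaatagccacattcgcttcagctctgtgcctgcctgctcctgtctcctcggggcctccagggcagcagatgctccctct
Ccl28: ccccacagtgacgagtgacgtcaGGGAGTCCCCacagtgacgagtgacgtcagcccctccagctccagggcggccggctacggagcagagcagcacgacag
Ccr4: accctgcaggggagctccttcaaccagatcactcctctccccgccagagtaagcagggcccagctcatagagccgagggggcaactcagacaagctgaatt
Cxcl14: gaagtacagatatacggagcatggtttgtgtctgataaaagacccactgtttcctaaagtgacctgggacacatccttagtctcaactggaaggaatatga

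Matches were present at Ackr2, Ccl21a and Ccl28 and not in the windows of Ackr3, Ccr4 and Cxcl14. In the Ccl28 peak the match GGGAGTCCCC occurred 2 times, centred 22.5 bp and 51.5 bp from the summit, and the second lies partly outside the printed window. At Ackr2 the capitals cover an overlapping pair, 1 match on each strand.

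Across all member peaks, a match within 100 bp of the summit was found in 9 of 19 peaks in adult (47.4%, 95% Wilson interval 27.3 to 68.3%), in 8 of 11 in the aged/IgG control pool (72.7%, 43.4 to 90.3%) and in 11 of 17 in the aged/anti-IL-17A/F pool (64.7%, 41.3 to 82.7%). The shares over all peaks of the same lists were 28.5%, 37.8% and 34.9%. The member share was the higher in each list, and in adult its interval included the share of all peaks. Over whole peaks the member shares were the same, beside 34.9%, 44.7% and 41.9% of all peaks, and the intervals of all 3 lists included them. With a looser form of the motif, which keeps the outer G and C letters and allows any letters between them, the share of member peaks was 68.4% in adult, beside 67.9% of all peaks, 81.8% for aged/IgG control, beside 72.8%, and 82.4% for aged/anti-IL-17A/F, beside 70.3%. The AP-1 motif TGANTCA, whose matches cannot overlap those of the NF-κB consensus motif, was within 100 bp of the summit in 6 of 19, 4 of 11 and 4 of 17 member peaks in the same order, where all peaks gave 13.2%, 14.1% and 14.4%. These intervals cover counting error only, and the same sites recur in the lists, so the shares of the 3 conditions are not independent of each other.

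In adult, 14 of the 61 members were bound (23.0%, 95% Wilson interval 14.2 to 34.9%), beside 23.1% of all protein-coding genes. In aged/IgG control 8 were bound (13.1%, 6.80 to 23.8%), beside 12.9% of all genes, and in the aged/anti-IL-17A/F pool 14 were bound (23.0%, 14.2 to 34.9%), beside 17.4%. As a group, chemokines and their receptors were thus bound about as often as genes at large in adult and aged/IgG control, and in the aged/anti-IL-17A/F pool the interval included the share of all genes.

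The same 8 members were bound in all 3 lists, 13.1% of the group beside 11.4% of all genes. They are the ligands Cxcl1, Cxcl5, Cxcl10, Cxcl12, Cxcl16, Ccl27a and Cx3cl1 and the atypical receptor Ackr4. The set was 5 when peaks had to lie within 10 kb of the start site, without Cx3cl1, Cxcl12 and Cxcl5, and 5 when predicted transcripts were included, without Cx3cl1, Cxcl16 and Cxcl5. Another 4, Ackr2, Ackr3, Ccr4 and Cxcl14, were bound in adult and aged/anti-IL-17A/F. Of these, Cxcl14 was also bound in the aged/IgG control pool when start sites of protein-coding genes alone were used. No peak of that pool overlapped the Cxcl14 site of the other lists, and the closest lay 34.4 kb from the Cxcl14 start site, nearer to Gm10782. The Cxcl14 call in the aged/anti-IL-17A/F pool was lost at a −log10 q of at least 5. When predicted transcripts were included, Cxcl14 was bound in no list. Ccl6 and Cxcr5 were bound in adult alone. These 6 make up the members bound in adult but not in the aged/IgG control pool, a state shared by 10.8% of all genes, and the last 2 those bound in adult but not after aged/anti-IL-17A/F treatment, beside 7.38%. Ccl21a and Ccl28 were the members bound in the aged/anti-IL-17A/F pool and not in adult, beside 1.70% of all genes. Neither was bound in the aged/IgG control pool. No member was bound in the aged/IgG control pool without also being bound in both other lists, where 0.607% of all genes were bound in it and not in adult, and 1.30% in it and not in the aged/anti-IL-17A/F pool.

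**Figure D1:**
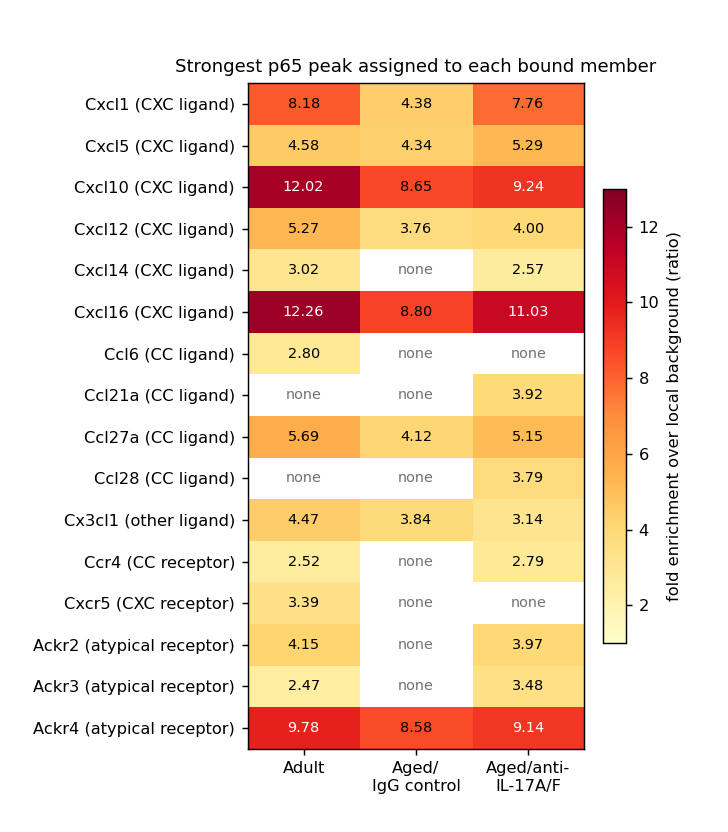
Fold enrichment over the local background (a ratio, given as a number and as colour) of the strongest p65 peak assigned to each of the 16 bound members, by condition, with "none" where no peak was assigned. Cxcl16, Cxcl10 and Ackr4 have the highest values in every list. Of the 16, 8 have no peak in the aged/IgG control pool, where 12.9% of all genes were bound, beside 25.2% bound in at least 1 list.

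The counts by class are set beside the shares of all genes, 23.1% in adult, 12.9% for aged/IgG control and 17.4% for aged/anti-IL-17A/F, and differences between classes were not tested. Of 12 CXC ligands, 6 were bound in adult (95% Wilson interval 25.4 to 74.6%), 5 in the aged/IgG control pool and 6 in the aged/anti-IL-17A/F pool. Of 24 CC ligands, 2 were bound in adult (8.33%, 2.32 to 25.8%), 1 in the aged/IgG control pool and 3 in the aged/anti-IL-17A/F pool. The intervals of these classes overlapped slightly in adult.

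Among receptors, 3 of the 4 atypical receptors were bound in adult (95% Wilson interval 30.1 to 95.4%), 1 in the aged/IgG control pool (4.56 to 69.9%) and 3 in the aged/anti-IL-17A/F pool (30.1 to 95.4%). These intervals overlap widely, and fewer of all genes were bound in the aged/IgG control pool as well. Of 11 CC receptors, 1, 0 and 1 were bound in the same order, and of 6 CXC receptors, 1, 0 and 0. Neither Cx3cr1 nor Xcr1 was bound in any list. In aged/IgG control, 1 of 23 receptors and 7 of 38 ligands were bound, and in adult 5 and 9 were.

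Cxcl16 encodes a transmembrane chemokine that is also shed in soluble form and attracts cells bearing Cxcr6. It had the highest fold enrichment of any member, in an intergenic peak 7.99 kb upstream of its start site (chr11:70467711-70468242 in adult). The value, the authors' ratio of the signal to the local background, was 12.3 in adult, 8.80 in the aged/IgG control pool and 11.03 in the aged/anti-IL-17A/F pool, which placed the peak at the 98.2, 95.5 and 97.7 percentile of its list. A second peak covered the start site of Cxcl16, with summits in an exon of the neighbouring gene Zmynd15, at 3.49 in adult, 3.20 in the aged/IgG control pool and 3.39 in the aged/anti-IL-17A/F pool. It held no match to the NF-κB consensus motif. Its receptor gene Cxcr6 had no peak closer than 324 kb in adult.

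Cxcl10, an interferon-induced ligand of Cxcr3, had a peak over its start site (chr5:92348734-92349296 in adult), inside an intron of Art3, which overlaps it. Fold enrichment there was 12.0 in adult, 8.65 in the aged/IgG control pool and 9.24 in the aged/anti-IL-17A/F pool. A further peak 4.90 kb upstream, in the same intron, reached 4.92, 4.48 and 4.87 in the same order and held GGGATTCCCC, which matches the motif on both strands. Both peaks were thus lowest in the aged/IgG control pool.

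Cxcl1, which attracts neutrophils through Cxcr2, had 1 peak over its start site (chr5:90890842-90891435 in adult). Fold enrichment was 8.18 in adult, 4.38 in the aged/IgG control pool and 7.76 in the aged/anti-IL-17A/F pool, and the −log10 q was 63.2, 24.8 and 63.0. The aged/IgG control value stood apart from the other two, which were close to each other.

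Cxcl5, another neutrophil-attracting ligand, had an intergenic peak 36.5 kb upstream of its start site, at 4.58 in adult, 4.34 in the aged/IgG control pool and 5.29 in the aged/anti-IL-17A/F pool. It was the only member peak called in all lists with its highest value in the aged/anti-IL-17A/F pool. Cxcl5 and Cxcl1 belong to a cluster of CXC ligand genes on chromosome 5, where the members Cxcl3, Cxcl15 and Cxcl2 between and beside them had no peak. Pf4 and Ppbp, chemokine genes of the cluster whose symbols fall outside the rule, had none either. The start site of Cxcl2 lay 12.7 kb from the Cxcl1 peak.

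**Figure D2:**
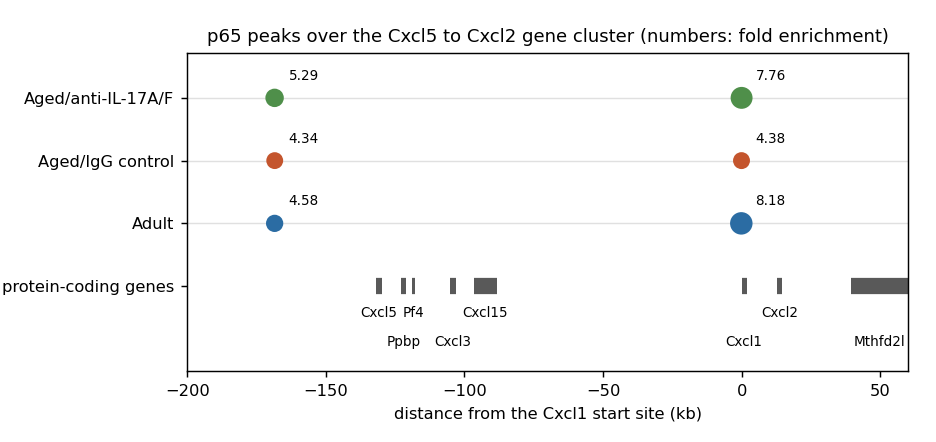
Positions of p65 peaks (circles, area in proportion to fold enrichment, with the value beside each) and protein-coding genes (grey bars) against the distance from the Cxcl1 start site in kb, for the 3 lists. Each list has the same pair of peaks, at Cxcl1 and upstream of Cxcl5, and the Cxcl1 circle is smallest in the aged/IgG control pool, at 4.38.

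Cxcl12, the ligand of Cxcr4 and Ackr3, was assigned a peak 98.5 kb downstream of its start site, with fold enrichments of 5.27 in adult, 3.76 in the aged/IgG control pool and 4.0 in the aged/anti-IL-17A/F pool. No other start site lies nearer to this peak, and the distance is the largest of any member peak. Cxcl14, a ligand made by epithelial cells, had an intergenic peak 27.7 kb upstream at 3.02 in adult and 2.57 in the aged/anti-IL-17A/F pool. The latter was among the weakest of its list, at the 6.93 percentile with a −log10 q of 4.88.

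Of the CC ligands, Ccl27a encodes a skin chemokine that recruits T cells through Ccr10. Its peak lay 2.66 kb from the start site in adult, in an exon of Il11ra1, with fold enrichments of 5.69 in adult, 4.12 in the aged/IgG control pool and 5.15 in the aged/anti-IL-17A/F pool. Ccl28, another ligand of Ccr10, had an intronic peak 8.15 kb from its start site at 3.79 in the aged/anti-IL-17A/F pool alone, and Ccl21a, a ligand of Ccr7, had one 6.39 kb upstream at 3.92 in the same list alone. Ccl6 had an intergenic peak 5.45 kb upstream at 2.80 in adult alone.

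The peaks at Ccl27a and Ccl21a are uncertain, because both genes have near-identical copies on chromosome 4 and reads may be split or misplaced among them. Of the 50-base words in the Ccl27a peak region, 33.0% (146 of 443) also occur elsewhere in the genome, and of those in the Ccl21a region 48.6% (155 of 319), in each case on chromosome 4. The value was 0 for the other 19 regions with a member peak. The copies Ccl27b, Ccl21b and Ccl21d had no assigned peak.

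Cx3cl1 encodes a membrane-anchored chemokine that binds Cx3cr1. A peak 13.6 kb downstream of its start site had fold enrichments of 4.47 in adult, 3.84 in the aged/IgG control pool and 3.14 in the aged/anti-IL-17A/F pool. It was the only one of the peaks called in all lists whose lowest value was in the aged/anti-IL-17A/F pool. A weaker peak 939 bp upstream was called in adult alone, at 2.56.

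Ackr4, an atypical receptor that takes up Ccl19, Ccl21 and Ccl25, had the strongest receptor peak. It lay 20.3 kb upstream, with fold enrichments of 9.78 in adult, 8.58 in the aged/IgG control pool and 9.14 in the aged/anti-IL-17A/F pool. A peak 2.58 kb downstream of the start site, in an exon of Acad11, had 6.73, 5.25 and 5.67 in the same order, and its summit in adult lay 3.5 bp from the motif match GGGAGTTTCC. A further peak 25.8 kb upstream, in an intron of Dnajc13, was called in adult alone at 2.65.

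Ackr2, an atypical receptor for inflammatory CC chemokines, had a peak in its own intron at 4.15 in adult and 3.97 in the aged/anti-IL-17A/F pool. Ackr3, which takes up Cxcl12, had an intronic peak at 2.47 in adult and 3.48 in the aged/anti-IL-17A/F pool. Ccr4, a receptor of skin-homing T cells, had a peak 6.28 kb upstream in adult at 2.52, and at 2.79 in the aged/anti-IL-17A/F pool. Cxcr5, the receptor for Cxcl13, had an intronic peak at 3.39 in adult alone. No peak at these 4 receptors was called in the aged/IgG control pool, where 46.7% of all genes bound in adult also had none. The adult peaks of Ackr3 and Ccr4 were weak, at the 5.49 and 6.52 percentile of their list.

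The members' peaks were then compared between lists, counting an overlap of at least 1 bp as shared. Of the 19 adult member peaks, 11 were overlapped in the aged/IgG control pool (57.9%, beside 45.5% of all adult peaks) and 15 in the aged/anti-IL-17A/F pool (78.9%, beside 60.4%). All 11 aged/IgG control member peaks were overlapped in adult and in the aged/anti-IL-17A/F pool, where 93.3% and 86.6% of all its peaks were. Of the 17 aged/anti-IL-17A/F member peaks, 15 were overlapped in adult (beside 85.6%) and 11 in the aged/IgG control pool (beside 59.9%).

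The adult member peaks that had no counterpart in the aged/IgG control pool were mostly weak in adult. The 8 of them had a median adult fold enrichment of 2.73, from 2.47 to 4.15, and a median percentile of 13.8 in the adult list. The 11 that had a counterpart had a median of 5.69, from 3.49 to 12.3, and a median percentile of 82.3. Ackr2, at the 64.1 percentile, was the strongest adult member peak without a counterpart, and the Cxcl16 promoter peak, at 46.1, the weakest with one. Over all adult peaks the medians were 3.13 for those without a counterpart and 4.92 for those with one.

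**Figure D3:**
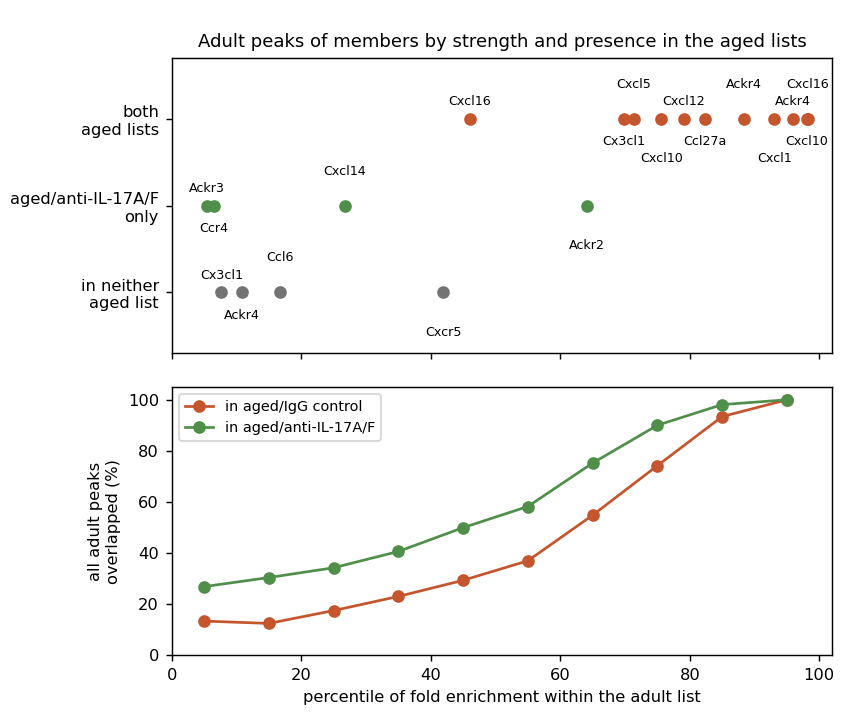
Top, the 19 adult member peaks by percentile of fold enrichment in the adult list and by presence in the aged lists (11 in both, 4 in the aged/anti-IL-17A/F pool only, 4 in neither). Bottom, the percentage of all adult peaks overlapped in each aged list by decile of adult fold enrichment, which goes from 13.4% in the aged/IgG control pool and 26.8% in the aged/anti-IL-17A/F pool in the lowest decile to 100% of both in the highest.

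Because the adult list is the longest, the lists were also cut to the 4169 peaks with the smallest p-values each. There were then 9 bound members for adult (14.8%, 95% Wilson interval 7.96 to 25.7%), beside 13.2% of all genes, 8 for aged/IgG control (13.1%), beside 12.9%, and 12 for aged/anti-IL-17A/F (19.7%, 11.6 to 31.3%), beside 13.1%. Each of these intervals included the share of all genes. Ackr2 was the single member bound in adult and not in the aged/IgG control pool, beside 2.65% of all genes. Of the 12 adult member peaks left, 11 were overlapped in the aged/IgG control pool (91.7%, beside 75.5% of all adult peaks) and all 12 in the aged/anti-IL-17A/F pool (beside 78.5%). The 8 members bound in all lists remained so.

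For the 11 member peaks called in all 3 lists, the fold enrichment in the aged/IgG control pool was below that in adult at each, with a median ratio of 0.781 and a range of 0.535 to 0.947. Over all 3502 such peaks the median ratio was 0.802 and 80.0% were below 1. The ratio of aged/anti-IL-17A/F to adult had a median of 0.906 for members and 0.889 for all peaks, and that of aged/anti-IL-17A/F to aged/IgG control 1.08 and 1.11. Ratios between lists depend on the efficiency of each immunoprecipitation, which the lists do not give.

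Cxcl1 was the one member whose ratio passed a factor of 1.5. Its aged/IgG control value was 0.535 of its adult value, at the 5.85 percentile of all shared peaks, where 23.6% fell by a factor of 1.5 or more. Its aged/anti-IL-17A/F value was 1.77 of its aged/IgG control value, at the 97.4 percentile, where 10.4% rose by that factor. Without replicates it cannot be said whether this exceeds the variation between mice. At Cx3cl1 the ratio of aged/anti-IL-17A/F to aged/IgG control was 0.819, and at the remaining members it went from 1.06 at the Cxcl16 promoter to 1.25 at the upstream peak of Cxcl16 and at Ccl27a. No member passed the factor of 1.5 upwards from adult to aged/IgG control, or in either direction from adult to aged/anti-IL-17A/F, where 1.06% of all shared peaks rose in the former and 13.9% fell and 2.26% rose in the latter.

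**Figure D4:**
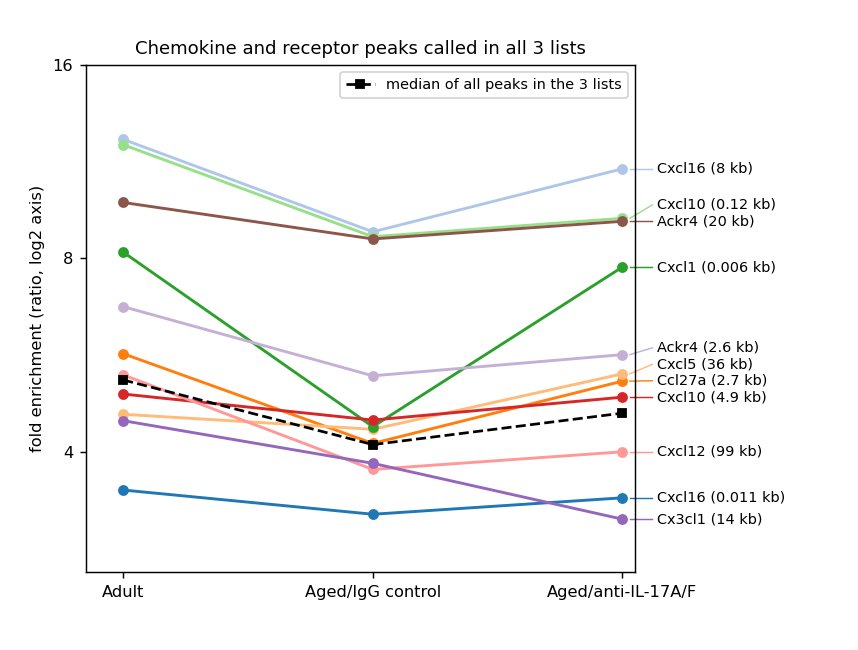
Fold enrichment (log2 axis) in each condition of the 11 member peaks called in all 3 lists, each labelled with its gene and the smallest distance in kb from its middle to the start site, with the median of all 3502 such peaks dashed. All lines go down from adult to aged/IgG control, with the steepest fall at Cxcl1, from 8.18 to 4.38.

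The share of peaks at promoters was lower for members than for all peaks in each list, over few member peaks. Within 1 kb of the start site were 4 of 19 in adult (21.1%, beside 40.0% of all peaks at protein-coding genes), 3 of 11 in the aged/IgG control pool (27.3%, beside 35.8%) and 3 of 17 in the aged/anti-IL-17A/F pool (17.6%, beside 36.6%). Promoter peaks were found at Cxcl1, Cxcl10 and Cxcl16 in every list and at Cx3cl1 in adult. Within 10 kb lay 63.2% of member peaks in adult, beside 61.9% of all peaks, 63.6% for aged/IgG control, beside 59.3%, and 70.6% for aged/anti-IL-17A/F, beside 59.4%.

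The 45 members with no peak in any list include the other ligands of the group, and 44 of the 45 are named here. Among CXC ligands they are Cxcl2, Cxcl3, Cxcl9, Cxcl13, Cxcl15 and Cxcl17. The CC ligands are Ccl1, Ccl2, Ccl3, Ccl4, Ccl5, Ccl7, Ccl8, Ccl9, Ccl11, Ccl12, Ccl17, Ccl19, Ccl20, Ccl21b, Ccl21d, Ccl22, Ccl24, Ccl25, Ccl26 and Ccl27b, and Xcl1 was also unbound. Among receptors they include Ccr1, Ccr1l1, Ccr2, Ccr3, Ccr6, Ccr7, Ccr8, Ccr9, Ccr10, Cxcr1, Cxcr2, Cxcr3, Cxcr4, Cxcr6, Cx3cr1, Xcr1 and Ackr1.

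Several unbound members were far from any peak. The monocyte- and eosinophil-attracting genes Ccl2, Ccl7, Ccl11, Ccl12, Ccl8 and Ccl1 lie together in 144 kb of chromosome 11, and the closest adult peak was 1123 kb or more from each of them. Ccl20, which attracts Ccr6-bearing cells and is known to be induced by IL-17 in keratinocytes, had its closest peak at 392 kb in adult and in the aged/anti-IL-17A/F pool and at 2620 kb in the aged/IgG control pool. Cxcl9, next to Cxcl10, lay 20.9 kb from the Cxcl10 promoter peak.

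Ccr10 was the unbound member closest to a peak. In adult a peak of fold enrichment 3.27 lay 441 bp from its start site and in the aged/anti-IL-17A/F pool one of 3.76 lay 488 bp away, but both were nearer to Cntnap1 and were assigned to it. In aged/IgG control the closest peak to Ccr10 lay 36.8 kb away.

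**Figure D5:**
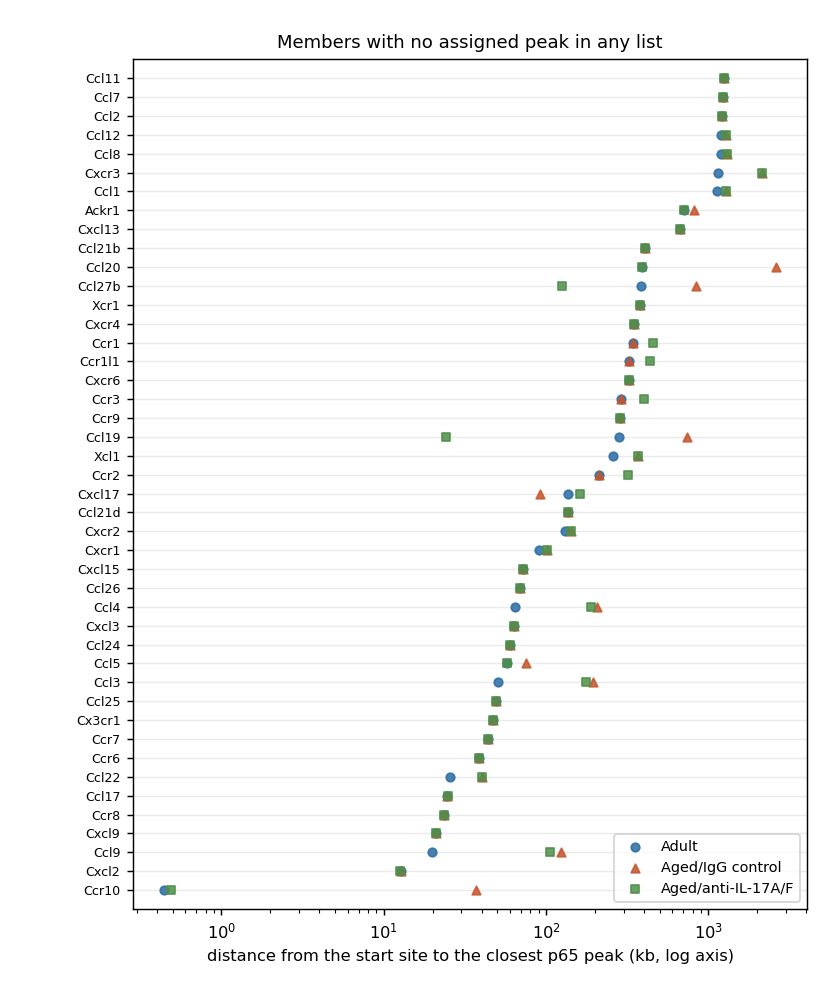
Distance in kb (log axis) from the start site of each of the 44 named members with no assigned peak to the closest p65 peak of any gene, by condition. Ccr10 stands apart at 0.441 kb in adult and 0.488 kb in the aged/anti-IL-17A/F pool, and 7 members lie over 1000 kb from the closest adult peak. Of these 7, 6 are the neighbouring genes of the Ccl2 to Ccl1 cluster. Within 1000 kb of an adult peak lay 88.5% of all 61 members, beside 93.0% of all genes.

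Measured over all 61 members, the median distance from the start site to the closest peak was 69.2 kb in adult, 137 kb in the aged/IgG control pool and 98.6 kb in the aged/anti-IL-17A/F pool. All genes gave 68.3 kb, 147 kb and 101 kb. The medians of the members were thus close to those of all genes in each list.

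The motif was present in promoters of both bound and unbound members. RefSeq promoter sequences of 300 bases were matched for 47 of the 61 members, and 10 of them (21.3%) held the NF-κB consensus motif, as did 5.65% of all 16783 promoters. Of the 13 bound members with a sequence, 4 held it, namely Ackr2, Ccl27a, Cxcl1 and Cxcl10. Of the 34 unbound ones, 6 did, namely Ccl9, Ccl20, Ccr3, Ccr6, Cxcl2 and Cxcl3. A match is a description of letters and not evidence of binding.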

How the data were processed

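The authors used Trimmomatic 0.36 for trimming and BWA for alignment to mm10, merged and deduplicated the 4 mice of each condition, downsampled every pool and called peaks with MACS2 (q of 0.01, no model, extension to 300 bp). The deposited narrowPeak lists give each peak as a position with a score, a fold enrichment (a ratio over the local background), a −log10 p-value, a −log10 q-value and a summit. Fold enrichment and −log10 q served to describe, rank and filter peaks. Read depth per peak is unknown, and whether inputs entered the calling is not stated.

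Peaks were assigned by the middle of the peak to the nearest start site of curated RefSeq transcripts (GRCm38), non-coding genes included, and those of non-coding genes were left out, in place of the authors' annotation. Chromosome Y was left out. The percentile ranks fold enrichment within a list, and a motif window spans 100 bp on each side of the summit. Shares have 95% Wilson intervals. All members but 1, which is not reported here, are named as bound or unbound. Sequences were chosen by highest adult fold enrichment or by a bound state that differs between the aged lists, and Cxcl1 was added after its values were seen. The members and gene lists were chosen with earlier results of these data known. Alternatives were stricter q, equal list sizes, other distance and annotation rules, 50% overlap, other motif windows and an exchange of lists. Python 3.11.15, numpy 2.4.6, pandas 2.3.3, scipy 1.17.1, pysam 0.24.0 and matplotlib 3.10.9 were used, and the assignment, overlap and motif steps were tested on simulated data.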

Additional observations from a re-analysis of the deposited data

How the results depend on the processing

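No paired analysis was possible because each condition is 1 pooled list. Of 108 values recomputed under other settings, 9 moved. The other 99 stayed within 1.5 times the reported count, or within the 95% Wilson interval of the reported share. Among the 99 are the counts made after the label of the adult pool was traded with that of the aged/anti-IL-17A/F pool. Those counts could not move, because the reported counts of these pools were equal. The trade did change the genes, with Ccl21a and Ccl28 in place of Ccl6 and Cxcr5 in adult. With 4169 peaks in every list, members bound in adult fell to 9, those bound there but missing from the aged/IgG control list to 1 (beside 2.65% of all genes) and those missing from the aged/anti-IL-17A/F list to 0 (beside 2.37%), while the overlap of adult member peaks rose to 91.7% for aged/IgG control (11 of 12, beside 75.5% of all adult peaks) and 100% for aged/anti-IL-17A/F (12 of 12, beside 78.5%). At a −log10 q of at least 10, the members bound in adult but missing from the aged/IgG control list numbered 3, beside 7.46% of all genes. There, and with 4169 peaks in every list, Ccr4 and Cxcl14 were lost from aged/anti-IL-17A/F, so that members bound there but missing from the aged/IgG control list went from 6 to 4 in both, beside 4.10% and 2.69% of all genes. Members bound in aged/IgG control numbered 5 when peaks had to lie within 10000 bp of the start site (beside 8.77% of all genes), which dropped Cx3cl1, Cxcl12 and Cxcl5, and 5 when predicted transcripts were included (beside 11.4%), which dropped Cx3cl1, Cxcl16 and Cxcl5. The adult motif share was 68.4% with the looser motif. With start sites of protein-coding genes alone, Cxcl14 was also bound in aged/IgG control, though not at its site in the other lists. That pool then had 9 bound members, beside 14.4% of all genes. Cxcl14 was lost in aged/anti-IL-17A/F at a −log10 q of at least 5, and was bound in no list when predicted transcripts were included. Pooling removes the variation between mice, and peaks close to the q limit may be listed in 1 condition alone although their signals differ little.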

Other observations

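Other genes of the chemokine system, from a list of 19 that the rule leaves out, were bound in 9 cases in adult and in 7 cases in each aged list, beside 23.1%, 12.9% and 17.4% of all genes. The 6 bound in all lists were Arrb1, Ccrl2, Dock2, Gnai3, Grk2 and Pik3cg. Dock2, which drives the movement of leukocytes downstream of chemokine receptors, had a peak 12.4 kb from its start site with fold enrichments of 6.57 in the adult pool, 4.70 in the aged/IgG control pool and 5.57 in the aged/anti-IL-17A/F pool. Ccrl2, a receptor-like protein that binds chemerin, had 3.30, 3.08 and 2.48 in the same order, and Arrb1, an arrestin that uncouples receptors from G proteins, had 4.49, 3.41 and 2.59. Both of these were lowest in aged/anti-IL-17A/F. Arrb2 was bound in adult and aged/anti-IL-17A/F, Gpr35 in adult and aged/IgG control, and Pik3r5 in adult alone. Gpr35 was thus bound in the aged/IgG control pool but not in aged/anti-IL-17A/F, a pattern seen at 1.30% of all genes and at no member.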
